A study of Mus musculus with 7 samples.

Results

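Transcripts of 9 genes of the hormone granule were followed in pancreatic islets of db/db mice. The genes, named by symbol, are Pcsk1, Pcsk2, Cpe, Pcsk1n, Scg5, Chga, Chgb, Scg2 and Scg3, and each symbol matched 1 of the 51912 Ensembl gene identifiers in the count table. All 9 passed the filter on low counts, among 16504 genes tested. All mice were db/db, a line that lacks a functional leptin receptor and becomes obese and diabetic. They had received an adeno-associated virus (AAV) for 4 weeks, and the isolated islets were kept 12 hours in culture before RNA was taken. The AAV-GFP group (4 mice) received a vector for green fluorescent protein, and the AAV-Adipsin group (3 mice) received a vector for adipsin, a serine protease of the complement system encoded by Cfd. Each mouse gave 1 library. The sources used here do not give the promoter of the vectors, nor the age or sex of the mice.

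Hormones such as insulin and glucagon are made as longer precursors that enter granules and are cut there. Prohormone convertases, the products of Pcsk1 and Pcsk2, cut after pairs of basic residues, and carboxypeptidase E, the product of Cpe, then trims the basic residues from the new end. Pcsk1n encodes proSAAS, which can inhibit the convertase of Pcsk1, and Scg5 encodes 7B2, a chaperone that the convertase of Pcsk2 needs to mature. The granins, encoded by Chga, Chgb, Scg2 and Scg3, are acidic proteins that aggregate with hormones and calcium in the forming granule and are themselves cut into peptides. In beta cells insulin is processed mainly by the first of these convertases together with the second, and in alpha cells glucagon is released from its precursor by the second.

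Total counts ran from 29601707 to 43997400 per library. Counts of Cfd were 1, 0, 0 and 0 in AAV-GFP replicates 1 to 4 and 3965, 839 and 1481 in AAV-Adipsin replicates 1 to 3, in the direction of the labels. The defining genes of islet cells were abundant, with summed levels of the 10 beta cell markers between 164159 and 204436 CPM (counts relative to the library total, after TMM scaling of the totals) and of the 7 alpha cell markers between 6440.1 and 9463 CPM. Markers of acinar cells, the enzyme-secreting cells around the islets, summed to between 2742 and 18157 CPM over 15 genes. Chromaffin cells and neurons also make granins. Of their markers, Dbh and Pnmt had 0 counts in at least 1 library and did not pass the filter, while Th passed, at 42.5 to 76.4 CPM. Of the neural markers, 5 of 7 passed and summed to between 252 and 275 CPM. In RNA from whole islets, fewer cells of a type and less RNA per cell cannot be told apart.

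A second split runs across the treatments. Replicate 1 of each group carries its treatment name in its description (the 2 treatment-named libraries), while the other 5 carry a db number (the db-numbered libraries). What this stands for is not stated, and the libraries are known from earlier work on the same data to separate by it. Values of each transcript are therefore given by treatment, within each style of description, and by the style itself.

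Promoter sequences are shown for Chga and Scg2, which stood apart in opposite directions by description style, and for Chgb and Pcsk1, which carry the same motif. The sequences are RefSeq's on GRCm38.p6, written 5′ to 3′ on the strand of the gene, with TGACGT (on either strand) in capitals. TGACGTCA, the full cyclic AMP response element, reads the same on both strands and contains TGACGT on each. Chga is shown at chr12:102554821-102554940 (plus strand), Pcsk1 at chr13:75089706-75089825 (plus), Scg2 at chr1:79440076-79440105 (minus) and Chgb at chr2:132781559-132781588 (plus), all upstream of the RefSeq start. The GENCODE annotation, used here for exon lengths, starts Scg2 at 79440120 and Chgb at 132781278. By that annotation the stretches of Scg2 and Chgb lie inside the gene, and those of Chga and Pcsk1 lie upstream.
Chga: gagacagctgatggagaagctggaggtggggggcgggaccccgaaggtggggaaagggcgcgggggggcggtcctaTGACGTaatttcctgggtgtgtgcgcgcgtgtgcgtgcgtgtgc
Pcsk1: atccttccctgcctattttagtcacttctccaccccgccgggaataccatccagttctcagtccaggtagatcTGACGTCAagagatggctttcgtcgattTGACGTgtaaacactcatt
Scg2: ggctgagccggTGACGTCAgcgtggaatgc
Chgb: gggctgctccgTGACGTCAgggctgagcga

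A promoter window of 250 bases before to 50 after the start was listed for 8 of the 9 genes, the exception being Cpe. TGACGTCA stood in 3 of these 8 windows (Scg2, Chgb and Pcsk1), against 1.79% of the 32851 windows of all genes. The shorter TGACGT stood in 5 of 8, with Chga and Scg5 added, against 7.51% of all windows. The GC box GGGCGG stood in 6 of 8 windows, against 35.7% of all, and Pcsk2 alone held 7 copies. TATAAA stood in the window of Chga, against 13.6% of all windows. This match lies just after the RefSeq start, and upstream of the GENCODE start of Chga at 102554969. These matches describe the letters only.

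The 9 genes together took between 3.80% and 4.28% of the counts of a library, with a mean of 4.07 ± 0.140% over the 4 AAV-GFP libraries and of 3.97 ± 0.277% over the 3 AAV-Adipsin libraries (± SD). To compare genes with each other, counts were divided by the length of the union of annotated exons and given as RPKM (CPM per kilobase). Scg2 had the highest level, at 4319 ± 563 RPKM (SD, n = 7), and was the fifth most abundant of the genes tested on this scale. Chga followed at 3034 ± 369 RPKM, Chgb at 3010.2 ± 304, Cpe at 2032 ± 92.7, Scg5 at 868 ± 66.4, Scg3 at 589 ± 67.8, Pcsk1n at 460.0 ± 72.9, Pcsk2 at 381 ± 35.6 and Pcsk1 at 92.5 ± 10.8 RPKM (SD, n = 7 each). On this length the granins Chga and Chgb did not differ beyond their spread, since Chga was the higher in 3 of 7 libraries. These 3 were AAV-GFP replicate 3 and replicate 1 of each group. In replicate 1, Chga was at 3431 and Chgb at 2849 RPKM in AAV-GFP, and at 3600 and 2614 RPKM in AAV-Adipsin. Scg2 lay above Chga in 6 of 7 libraries and Scg3 above Pcsk1n in 6 of 7, while every other neighbour in this order kept its place in 7 of 7. The order depends on the length used. Per length of the longest transcript, Chga stood at 4441 ± 540.2 RPKM (SD, n = 7), above Scg2 and no longer level with Chgb, which stayed at 3010.2 ± 304 RPKM (SD, n = 7), and Pcsk2 stood at 638 RPKM, above Pcsk1n.

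**Figure D1:**
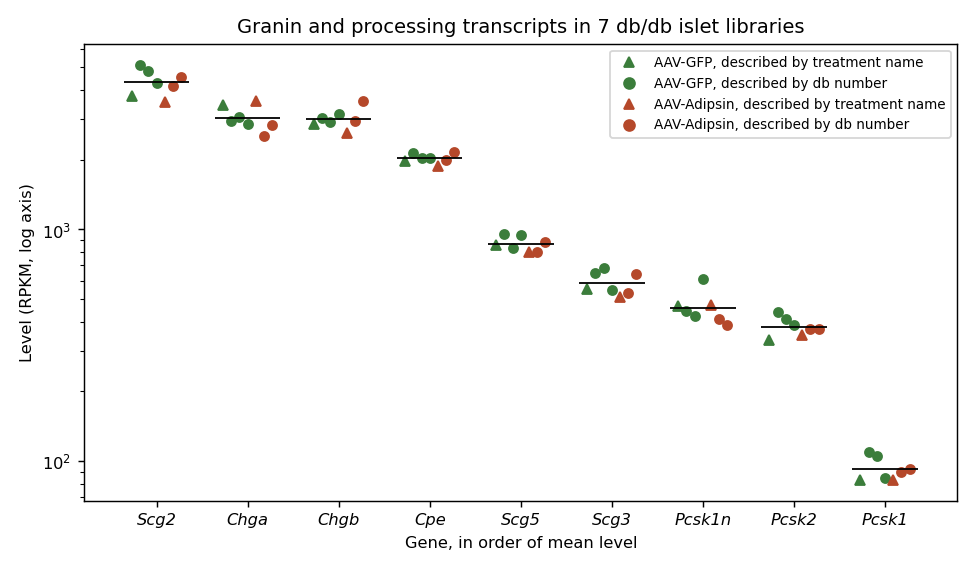
Level of each transcript in each library, in RPKM on a log axis, with genes in order of their mean (black line, 7 libraries), colours for treatment and shapes for description style. Levels run from 4319 RPKM for Scg2 to 92.5 RPKM for Pcsk1, the libraries of the 2 treatments overlap for each gene, and the triangles of Chga lie above its circles while those of Scg2 lie below.

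The comparison of treatments asks whether the vector for adipsin goes with a change in the transcripts of hormone processing and granule formation. Serum glucose was similar in the groups at that time, per the design text of the series. None of the 9 transcripts passed the threshold (adjusted p of 0.05) in edgeR's quasi-likelihood test, where 0.00606% of all genes passed, and 0 of 9 had an unadjusted p under 0.05, against 1.16% of all genes. DESeq2 called 0 of 9 (0.0102% of all genes) and limma-voom 0 of 9 (0% of all genes). The groups overlapped for each of the 9, where 2.73% of all genes had groups that did not overlap. Fitted log2 fold changes of AAV-Adipsin over AAV-GFP were below 0 for 8 of 9, with a median of -0.11, beside a median of -0.01 and a share below 0 of 53.8% over all genes. The 95% intervals of the 9 lay between 0.698-fold and 1.22-fold.

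Pcsk1, the convertase gene with the lowest level of the 9, stood at 465, 614, 589.9 and 474 CPM in AAV-GFP replicates 1 to 4 and at 465, 503 and 519 CPM in AAV-Adipsin replicates 1 to 3. The AAV-GFP libraries span the wider range, and replicate 1, the lowest library of each group, is level between the groups. Means were 536 ± 77.1 CPM in AAV-GFP (SD, n = 4) and 496 ± 27.9 CPM in AAV-Adipsin (SD, n = 3), a log2 fold change of -0.11 (SE 0.12, edgeR adjusted p = 1.00).

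Pcsk2, the other convertase, stood at 2644, 3469.9, 3261 and 3048 CPM in AAV-GFP and at 2771, 2939.6 and 2945 CPM in AAV-Adipsin. The AAV-Adipsin libraries all lie within the range of AAV-GFP. The log2 fold change was -0.11 (SE 0.11, edgeR adjusted p = 1.00), with a 95% interval from 0.786-fold to 1.10-fold. A transcript on the opposite strand, Pcsk2os1, overlaps Pcsk2 and had 663 to 1098 counts in a library, against 88335 to 125491 for Pcsk2. The sources used here do not say whether the counting used strand.

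Cpe, which trims the cut ends, varied least of the 9. It stood at 5164, 5551, 5319 and 5304 CPM in AAV-GFP and at 4919.7, 5206 and 5641 CPM in AAV-Adipsin, so that the AAV-Adipsin libraries hold both the lowest and the highest value. Its log2 fold change was -0.02 (SE 0.08, edgeR adjusted p = 1.00), with an interval from 0.862-fold to 1.13-fold. The sign turned in 3 of the 14 alternatives.

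Of the helper genes, Pcsk1n, which encodes the inhibitor, stood at 1029.8, 975, 932 and 1337 CPM in AAV-GFP and at 1038, 898 and 851 CPM in AAV-Adipsin. AAV-GFP replicate 4 is the highest library and AAV-Adipsin replicates 2 and 3 are the lowest. Means were 1069 ± 183 CPM (SD, n = 4) and 929 ± 97.3 CPM (SD, n = 3), and the log2 fold change of -0.20 (SE 0.14, edgeR adjusted p = 1.00) was the largest in size among the 9. Without AAV-GFP replicate 4 it was -0.07, and it stayed below 0 in each of the 14 alternatives. AAV-GFP replicate 4 also had the highest summed levels of the delta cell markers (963 CPM), the PP cell markers (1884 CPM) and the stellate and mesenchymal markers (351 CPM). Their part in the Pcsk1n value was not tested.

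Scg5, the chaperone gene, stood at 1346, 1501, 1303 and 1490.2 CPM in AAV-GFP and at 1248, 1253 and 1391 CPM in AAV-Adipsin. AAV-Adipsin replicates 1 and 2 lie just below the AAV-GFP range and replicate 3 inside it. The log2 fold change was -0.12 (SE 0.09, edgeR adjusted p = 1.00).

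Among the granins, Chga stood at 9456, 8106, 8457 and 7834 CPM in AAV-GFP and at 9922, 6993 and 7769.9 CPM in AAV-Adipsin. Replicate 1 is the highest library in each group. Means were 8463 ± 709 CPM (SD, n = 4) and 8228 ± 1517 CPM (SD, n = 3), a log2 fold change of -0.04 (SE 0.13, edgeR adjusted p = 1.00) whose sign turned in 3 of the 14 alternatives.

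Chgb, the second chromogranin, stood at 7805, 8309.5, 7969.7 and 8640.1 CPM in AAV-GFP and at 7162, 8021 and 9826.5 CPM in AAV-Adipsin. The spread in AAV-Adipsin, 1359.9 CPM (SD, n = 3), was wider than the 371 CPM in AAV-GFP (SD, n = 4). Its log2 fold change of 0.03 (SE 0.12, edgeR adjusted p = 1.00) was the 1 of 9 above 0 and turned to -0.10 without AAV-Adipsin replicate 3.

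Scg2, the precursor of secretoneurin, stood at 9444, 12916, 12096 and 10806 CPM in AAV-GFP and at 8919, 10437 and 11418 CPM in AAV-Adipsin. Replicate 1 is the lowest library in each group. The log2 fold change was -0.14 (SE 0.13, edgeR adjusted p = 1.00), with an interval from 0.736-fold to 1.12-fold.

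Scg3, which binds chromogranin A and cholesterol-rich granule membrane, stood at 1516, 1782, 1867 and 1500.2 CPM in AAV-GFP and at 1396, 1462 and 1762 CPM in AAV-Adipsin. The log2 fold change was -0.11 (SE 0.12, edgeR adjusted p = 1.00). Replicate 1 is the lowest AAV-Adipsin library, and replicates 1 and 4 are the low AAV-GFP libraries.

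Within the treatment-named pair, log2 CPM in AAV-Adipsin minus AAV-GFP was 0.07 for Pcsk2 and for Chga, 0.01 for Pcsk1n, -0.07 for Cpe, -0.08 for Scg2, -0.11 for Scg5 and -0.12 for Chgb and Scg3, and the 2 values of Pcsk1 were equal to 3 digits. Among the db-numbered libraries the difference was -0.12 for Pcsk1, -0.15 for Pcsk2, 0.01 for Cpe, -0.29 for Pcsk1n, -0.11 for Scg5, -0.14 for Chga, 0.10 for Chgb, -0.13 for Scg2 and -0.09 for Scg3. The sign was the same in both styles for Scg5, Scg2 and Scg3 only.

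**Figure D2:**
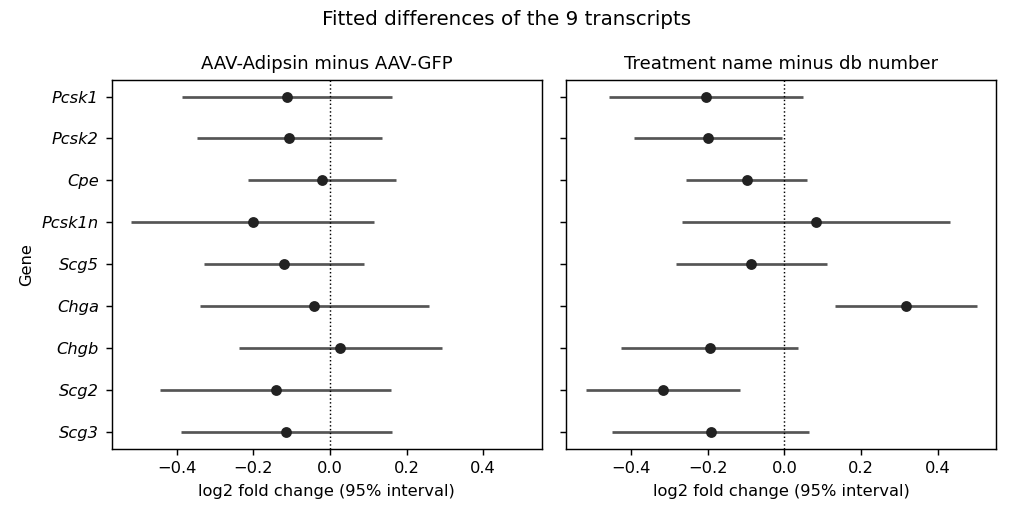
Fitted log2 fold change of each transcript (point) with its 95% interval (line), for AAV-Adipsin minus AAV-GFP on the left and for treatment-named minus db-numbered libraries on the right, from edgeR. On the left every interval includes 0, and on the right the intervals of Chga, Scg2 and Pcsk2 do not, with Chga above 0 at 0.32 and Scg2 below at -0.32.

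By description style, with treatment in the model, Chga was higher in the 2 treatment-named libraries, at a log2 fold change of 0.32 (SE 0.08, edgeR adjusted p = 0.0470). It was the 1 of 9 past the threshold, where 9.79% of all genes passed (4.22% higher and 5.57% lower in the treatment-named libraries), so the share of members called is near that of all genes. The 2 libraries had 9456 and 9922 CPM, above the 6993 to 8457 CPM of the other 5. Scg2 had a value of the same size in the other direction, at -0.32 (SE 0.09, edgeR adjusted p = 0.0601), with 8919 and 9444 CPM in the 2 libraries and 10437 to 12916 CPM in the other 5. DESeq2 called both, where it called 16.3% of all genes with an adjusted p, with an adjusted p of 0.00794 for Chga and 0.0125 for Scg2. Without AAV-GFP replicate 4, edgeR called 3 members by style, Chga, Scg2 (adjusted p = 0.00894) and Pcsk1 (0.0266), where 26.6% of all genes passed. The call of Chga was lost without AAV-GFP replicate 1 (edgeR adjusted p = 0.222), 2 (0.0705) or 3 (0.0758), without AAV-Adipsin replicate 1 (0.430), 2 (0.128) or 3 (0.106), and without a filter on low counts (0.0796), while its log2 fold change stayed between 0.22 and 0.42.

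The other convertase and granin genes were lower in the 2 libraries without passing. The log2 fold change by style was -0.20 for Pcsk1 and for Pcsk2, -0.19 for Chgb and for Scg3, -0.10 for Cpe and -0.09 for Scg5, and it was 0.08 for Pcsk1n. An unadjusted p under 0.05 was found for 3 of 9 (Chga, Scg2 and Pcsk2), against 28.2% of all genes. The 2 libraries lay outside the range of the other 5 for 6 of 9 members, the exceptions being Pcsk1n, Scg5 and Scg3, against 37.6% of all genes. The median over the 9 was -0.19, beside -0.01 over all genes.

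Beside these values, the summed alpha cell markers were 9442 and 9463 CPM in the 2 libraries and 6440.1 to 8896 CPM in the other 5. Most of this sum was Gcg, with means of 8485 and 7189 CPM in the 2 and the other 5. Gcg alone did not pass by style, at 0.23 (edgeR adjusted p = 0.284). The summed beta cell markers, at 192642 and 204436 CPM, overlapped the 164159 to 203220.0 CPM of the others. Of the single markers, edgeR called 4 of 10 beta cell markers by style and 0 of 7 alpha cell markers, where 9.79% of all genes passed. The acinar markers, at 3971 and 5283 CPM, lay inside the range of the others, 2742 to 18157 CPM. By style, the log2 fold change was below 0 for 15 of 15 acinar markers tested, with 0 called. It was also below 0 for 9 of 9 stellate and mesenchymal, 9 of 9 macrophage and 4 of 4 delta cell markers. The count was 7 of 8 for endothelial, 6 of 7 for duct, 3 of 10 for beta and 2 of 7 for alpha cell markers. For neural markers it was 4 of 5, and for PP cell markers 2 of 3. The median log2 fold change by style over all genes was -0.01. Among the markers of these cell types, besides the beta cell markers, edgeR called 1 macrophage marker. The summed neural markers, at 252 and 256 CPM, lay inside the range of the others, 252 to 275 CPM. Th, the only chromaffin marker that passed the filter, was at 63.9 and 76.4 CPM against 42.5 to 49.4 CPM. It was also called by edgeR. The other chromaffin markers, Dbh and Pnmt, had 0 counts in at least 1 library, so Th stands here as a single gene. Their part in the granin values was not tested.

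**Figure D3:**
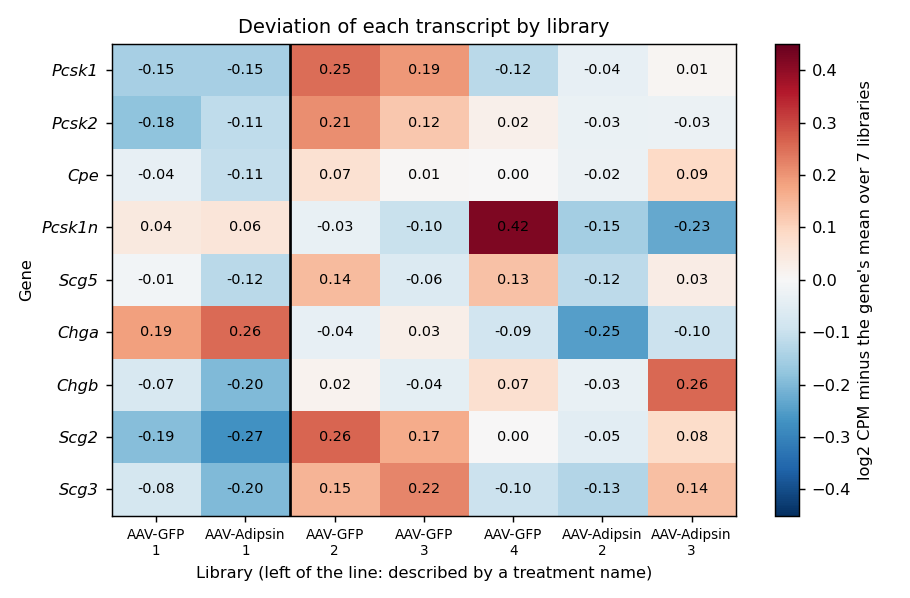
Log2 CPM of each transcript in each library minus the mean of the gene over the 7 libraries, as numbers and colour, with the 2 treatment-named libraries left of the black line. Chga is at 0.19 and 0.26 there while Scg2 is at -0.19 and -0.27, and the largest deviation in the map is Pcsk1n in AAV-GFP replicate 4, at 0.42.

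Ratios between transcripts of the same library do not depend on the scaling of libraries. Pcsk1n to Pcsk1, inhibitor to enzyme, was 2.21, 1.59, 1.58 and 2.82 in AAV-GFP and 2.23, 1.79 and 1.64 in AAV-Adipsin, in counts. AAV-GFP replicate 4 had the highest ratio, and the groups overlapped. The difference of mean log2 ratios was -0.09 (exact two-sided permutation p = 0.914). Scg5 to Pcsk2, chaperone to enzyme, was 0.509, 0.433, 0.400 and 0.489 in AAV-GFP and 0.451, 0.426 and 0.472 in AAV-Adipsin, a difference of -0.02 (exact p = 0.857).

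The convertases kept the most even ratio. Pcsk1 to Pcsk2 was between 0.156 and 0.181 in all 7 libraries, with AAV-GFP replicate 4 the lowest, and the groups differed by -0.003 in log2 (exact p = 0.971). Cpe to Pcsk1 was between 9.02 and 11.2, with a difference of 0.08 (exact p = 0.571). Against their substrates, Pcsk1 to Ins2 differed by -0.04 (exact p = 0.800) and Pcsk2 to Gcg by -0.28 (exact p = 0.286), the latter with 0.314 to 0.571 in AAV-GFP and 0.324 to 0.392 in AAV-Adipsin. With AAV-GFP replicate 3 left out, the difference of Pcsk2 to Gcg was -0.14, and with AAV-GFP replicate 1 left out it was -0.43. Pcsk2 acts in beta and alpha cells and Gcg is the alpha cell substrate. In whole islets, the mix of cells and the level per cell cannot be told apart in this ratio. Chgb to Chga differed by 0.07 (exact p = 0.800). In the treatment-named pair and in the db-numbered libraries, in that order, the differences were 0.01 and -0.17 for Pcsk1n to Pcsk1, -0.18 and 0.03 for Scg5 to Pcsk2, -0.07 and 0.02 for Pcsk1 to Pcsk2, -0.19 and 0.24 for Chgb to Chga, -0.07 and 0.13 for Cpe to Pcsk1, -0.09 and 0.03 for Pcsk1 to Ins2, and 0.05 and -0.36 for Pcsk2 to Gcg. The Benjamini-Hochberg adjusted p was 0.971 for each of the 7 ratios. The smallest p these 35 divisions allow is 0.0571, so the test cannot reach 0.05.

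Chga to Scg2, a ratio chosen after its values were seen and given without a test, was 1.00 and 1.11 in the 2 treatment-named libraries. In the other 5 it was 0.628, 0.699 and 0.725 in AAV-GFP and 0.670 and 0.680 in AAV-Adipsin. Both treatments occur on both sides of the gap. Of the ratios tested by treatment, Chgb to Chga and Pcsk2 to Gcg also stood apart by style, and the others overlapped. Chgb to Chga was 0.825 and 0.722 in the 2 treatment-named libraries and 0.942 to 1.26 in the other 5. Pcsk2 to Gcg was 0.314 and 0.324 against 0.364 to 0.571.

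**Figure D4:**
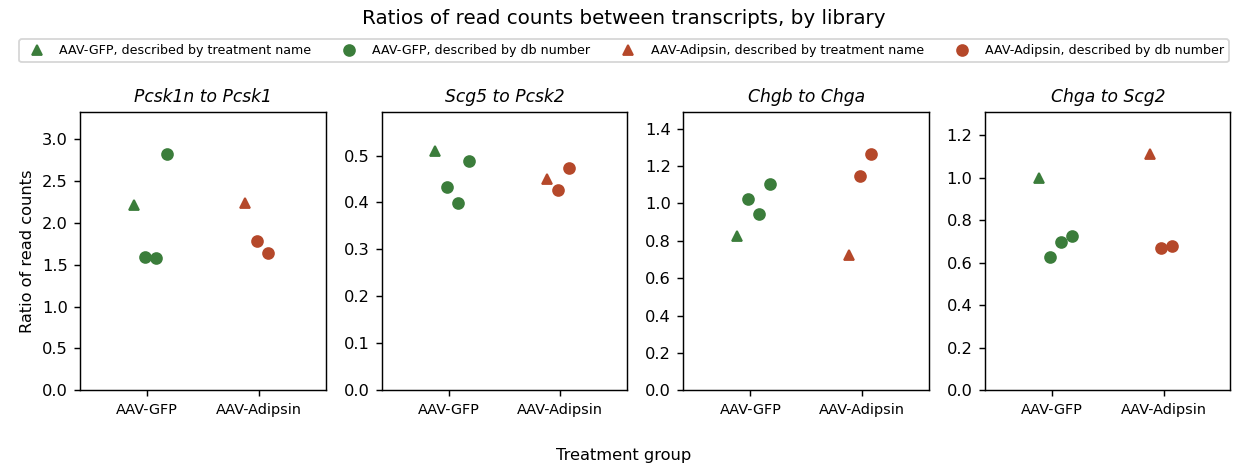
Ratio of read counts between 2 transcripts in each library (points), by treatment group, on axes that start at 0, with shapes for description style. The groups overlap in all 4 panels, AAV-GFP replicate 4 is the high point at 2.82 for Pcsk1n to Pcsk1, and for Chga to Scg2 the triangles at 1.00 and 1.11 lie above the circles, which end at 0.725. For Chgb to Chga the triangles, at 0.825 and 0.722, lie below the circles.

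Over the 7 libraries, the members closest to each other in centred log2 CPM were Pcsk1 and Pcsk2, with a root mean square difference of 0.07, beside a median of 0.17 between Pcsk1 and the 5890 genes compared. Scg2 and Scg3 were both closest to Pcsk1 among the members, at 0.07 and 0.08. Cpe and Scg5 were closest to each other, at 0.08, and Chgb was closest to Cpe, at 0.08. Chga had no close member: its nearest was Cpe at 0.20, at rank 2796 by nearness among the 5890 genes. Pcsk1n was also apart, with Scg5 nearest at 0.18. The gene of all those compared that lay nearest to Chga was Pnmal2, at 0.02, with 306 and 317 CPM in the 2 treatment-named libraries and 228 to 269 CPM in the other 5. Among the other members, the nearest gene was Rnf2 for Pcsk1, Kcnip1 for Pcsk2, Fam104a for Pcsk1n, Klhl42 for Scg5, Tmem108 for Chgb, Chrm3 for Scg2 and Cdhr1 for Scg3, each within 0.06. Among 5890 genes over 7 libraries some are close to any profile, and these distances describe the libraries only.

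The other genes of the pathway were taken from 5 lists with 95 genes in all, of which 92 were tested. None of the 92 passed by treatment in edgeR (0.00606% of all genes) or DESeq2 (0.0102%), and 2 had an unadjusted p under 0.05 in edgeR, where 1.16% of all genes did. Of 19 other processing enzymes tested, 12 were above 0 and 7 below, with a median of 0.03. The most abundant were Pam, which amidates peptides, at 1174 ± 33.8 CPM in AAV-GFP (SD, n = 4) and 1180.4 ± 100.04 CPM in AAV-Adipsin (SD, n = 3), and the lysosomal proteases Ctsl and Ctsb, at 609 and 546 CPM in AAV-GFP. The smallest p among them belonged to Tpp1 at a log2 fold change of -0.11, Qpct at 0.26 and Pcsk6 at 0.09.

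Of 11 other granin-like and cargo genes tested, 2 were above 0 and 9 below, with a median of -0.07. Clu, Resp18 and Nucb2 were the most abundant, at 1603, 1072 and 558 CPM in AAV-GFP. The smallest p belonged to Gfra3, a receptor at under 3 CPM, at 0.66, then Gnas at -0.43 and Spock1 at -0.20. The Gnas value rested on 1 library, since it was -0.01 without AAV-GFP replicate 4, and Spock1 was at -0.07 without AAV-GFP replicate 2. Of 28 genes of granule biogenesis, acidification and membrane, 9 were above 0 and 19 below, with a median of -0.03. Ptprn and Ptprn2, membrane proteins of the granule, stood at 1257 and 881 CPM in AAV-GFP and Syt7, a calcium sensor, at 441 CPM, and the smallest p belonged to Tmem163 at -0.18, Vamp2 at -0.16 and Vamp4 at -0.10.

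Of 14 prohormone substrates tested, 6 were above 0 and 8 below, with a median of -0.03, and the smallest p belonged to Npy at 1.28 and Penk at 1.04, both under 1 CPM on average, and Gcg at 0.16. Ins2, Iapp and Ins1 were the most abundant, at 123829, 39627 and 21092 CPM in AAV-GFP. Ins1 and Ins2 are closely related in sequence, and how the counting split their reads is uncertain. Of 20 regulators of granule gene transcripts, 7 were above 0 and 13 below, with a median of -0.03. The smallest p among them belonged to Nkx2-2, a transcription factor of endocrine cells, at -0.27 (SE 0.10, edgeR adjusted p = 1.00), Ptbp2 at -0.25 and Mafa at -0.29. Pax6, Insm1 and Ptbp1, an RNA-binding protein known to stabilise granule mRNAs, were the most abundant at 344, 329.5 and 199 CPM in AAV-GFP.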

How the data were processed

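The authors deposited 1 table of read counts per Ensembl gene with a column for each of 7 libraries, as whole numbers that were not normalised. STAR and mm10 (GRCm38) are named as aligner and build, per the submitters' processing notes. The counting program, strand setting and annotation: not given in the sources used here. Symbols, positions and exon lengths came from GENCODE mouse release 21 (GRCm38), which matched 51719 of 51912 identifiers.

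All genes were fitted in R 4.3.3 with edgeR 4.0.16: filterByExpr by group, scaling by the trimmed mean of M values, and a robust quasi-likelihood F test of treatment, or of description style with treatment in the model. P values were Benjamini-Hochberg adjusted over all 16504 genes, and no p was adjusted over the 9 alone. SE and 95% intervals came from the F statistic. Log2 CPM carried a prior count of 2. DESeq2 1.42.0, limma-voom (limma 3.58.1), other scaling and filters, the replicate number as a block and the removal of libraries were alternatives. Fits were tested on simulated counts. Members and lists were chosen with earlier results of these data known. From each list, the 3 genes with the smallest p and the 3 most abundant are named, and the nearest gene of each member was taken among genes with a mean log2 CPM of at least 5. Each library is from a separate mouse. Some single-gene values are not reported here.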

Additional observations from a re-analysis of the deposited data

How the results depend on the processing

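By treatment, 0 of the 9 members and 0 of the 92 pathway genes passed in any of the 14 alternatives, and 7 or 8 members stayed below 0, with a median between -0.14 and -0.05. Over all genes, 1 passed in the main test, 3 with DESeq2, 0 with limma-voom, 0 without a filter on low counts, 0 without the 2 treatment-named libraries, and 0 to 1 when single libraries were left out. By description style, 0 members passed without a filter, 2 with DESeq2, and 0 to 3 when single libraries were left out. Treatment values near 0 turned sign: Cpe to 0.021 without the 2 treatment-named libraries and to between -0.063 and 0.023 without single libraries, Chga to between -0.20 and 0.070 and Chgb to between -0.10 and 0.12 without single libraries. By style, Pcsk1n ran from -0.070 to 0.24 without single libraries.

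The labels do not say whether the replicate numbers pair the mice. Same-numbered libraries deviated together at r = 0.66, -0.01 and 0.01 across genes, and replicates 2 and 3 of AAV-Adipsin were closest to AAV-GFP replicate 4. These deviations were taken from group means that include the treatment-named libraries, so they cannot decide whether the numbers pair the mice. With the number as a block, edgeR called 1 gene and 0 members. For the ratios, the paired value leaves out the unpaired AAV-GFP replicate 4: Pcsk1n to Pcsk1 turned to 0.077 and Scg5 to Pcsk2 to 0.015 (log2 difference), the same values as without that library alone. Within the treatment-named pair, Pcsk1n to Pcsk1 was 0.011, Chgb to Chga -0.19, Cpe to Pcsk1 -0.070 and Pcsk2 to Gcg 0.048. In the db-numbered libraries, Scg5 to Pcsk2 was 0.032, Pcsk1 to Pcsk2 0.025 and Pcsk1 to Ins2 0.028. Without single libraries, Pcsk1n to Pcsk1 ran from -0.22 to 0.077, Scg5 to Pcsk2 from -0.082 to 0.034, Pcsk1 to Pcsk2 from -0.051 to 0.022, Chgb to Chga from -0.090 to 0.31, Pcsk1 to Ins2 from -0.14 to 0.11 and Pcsk2 to Gcg from -0.43 to -0.14. Why the other values moved was not tested. With 3 and 4 mice, differences within the fold-change intervals given remain possible. These intervals were not adjusted for the number of genes tested, so they do not set a limit of detection. Differences larger than the intervals could also have missed the adjusted threshold.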

Other observations

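By description style, with treatment in the model, edgeR called 11 of 92 other pathway genes, or 12.0%, near the 9.79% of all genes that passed. Of these, 7 were higher in the 2 treatment-named libraries and 4 lower. These genes were named after their values were seen. Cpm, a carboxypeptidase of the cell surface, was at 19.9 and 20.8 CPM in the 2 libraries against 45.5 to 60.1 CPM in the other 5, a log2 fold change of -1.36 (SE 0.09, edgeR adjusted p = 3.26e-04). Pcsk4, a convertase of the same family as Pcsk1 and Pcsk2, was at 52.6 and 32.8 CPM against 16.5 to 21.4 CPM, or 1.18 (SE 0.14, edgeR adjusted p = 0.00520). Nucb2, the precursor of nesfatin, was at 437 and 402 CPM against 551 to 606 CPM, or -0.49 (SE 0.07, edgeR adjusted p = 0.00972). Slc30a8, the zinc transporter of insulin granules, was at 268 and 283 CPM against 155 to 209.6 CPM, or 0.64 (SE 0.11, edgeR adjusted p = 0.0182).

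Among the prohormone substrates, Iapp, Ucn3 and Pomc were higher in the 2 libraries. Iapp stood at 46314 and 45724 CPM against 30966 to 38537 CPM, or 0.40 (SE 0.08, edgeR adjusted p = 0.0225), and Ucn3 at 205 and 235 CPM against 96.5 to 159 CPM, or 0.89 (SE 0.19, edgeR adjusted p = 0.0305). Pomc stayed under 7 CPM in each library. The others called included Vamp2, at -0.27, and Stx16 and Rfx3, at 0.32 and 0.66. What the description style stands for is not stated, so these values describe 2 libraries against 5.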
